A study of Mus musculus with 5 samples.

Results

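The genes examined were 10 regulators of the G1 phase of the cell cycle, namely the D-type cyclins Ccnd1, Ccnd2 and Ccnd3, the E-type cyclins Ccne1 and Ccne2, the kinases Cdk4 and Cdk6, and the kinase inhibitors Cdkn1b, Cdkn2a and Cdkn2c. They are a list of names out of 21938 protein-coding genes of the mouse annotation, with no threshold on a measured value, drawn up when earlier results of these data were known. The data were peak lists from chromatin immunoprecipitation sequencing (ChIP-seq) of the transcriptional repressor Gfi1 and of the histone demethylase Lsd1 in MG tumors, which are mouse medulloblastomas driven by retroviral Myc and Gfi1. Neural stem cells expressing Prominin1 and lacking lineage markers had been sorted from cerebella of wild-type C57BL/6 mice at postnatal days 5 to 7, infected with Myc (the T58A allele) and Gfi1 and placed in the cerebella of immunodeficient NSG hosts, and the tumors were taken from the adult hosts, with no treatment named for them. The same 2 tumors, numbered 39 and 41, each gave 1 Gfi1 library and 1 Lsd1 library, immunoprecipitated with 4 µg of antibody. Both tumors carry the Gfi1 transgene, no tumor without Gfi1 and no untransformed cell was among the ChIP samples, and cells of the host may remain in the tissue. An input library pooled from MGB tumors, which carry Gfi1b in place of Gfi1, belongs to the series but was not analysed here.

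Progression through G1 is set by cyclins that activate partner kinases and by inhibitors that hold those kinases back. D-type cyclins pair with Cdk4 or Cdk6 and phosphorylate the retinoblastoma protein, E-type cyclins pair with Cdk2 and complete that phosphorylation, and the released E2F factors switch on genes for DNA replication. In the postnatal cerebellum, granule neuron progenitors divide under Sonic hedgehog with D-type cyclins active, and loss of Cdkn1b or Cdkn2c favours medulloblastoma in Ptch1 mutant mice. Gfi1 binds DNA through zinc fingers and brings Lsd1, which removes methyl groups from histone H3, to its sites through an N-terminal SNAG domain.

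The 4 lists held 36836 (tumor 39) and 25078 (tumor 41) peaks for Gfi1 and 30367 and 33213 for Lsd1, with median widths of 1443 to 1765 bp. Each peak carried a score whose definition is not given in the sources used here, so a peak is described by its score percentile, the share of the peaks in its own list with a lower score. The lists carry no read counts, and the number of reads behind a peak is therefore unknown. In tumor 39 the Gfi1 list held 805 peaks tied at a score of 3100, which all have the percentile 97.5. The same score was held by 12 Gfi1 peaks in tumor 41, and by 113 Lsd1 peaks in tumor 39 and 419 in tumor 41. The Lsd1 percentile of 98.5 at Ccnd1 in tumor 41 is such a tied value. With 2 tumors per factor the smallest p that a two-sided exact permutation test allows is 0.333, so no difference between factors or tumors was tested, and values are given per library with the standard deviation (SD) over the libraries named. Pairs of values for a factor give tumor 39 first and tumor 41 second, and runs of 4 values give the Gfi1 pair before the Lsd1 pair.

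Peaks of both factors lay at the transcription start sites of nearly all of these genes. A peak within 1 kb of an annotated transcription start site (TSS) was present in the Gfi1 lists at 10 of 10 genes in tumor 39 (65.0% of all protein-coding genes) and 9 in tumor 41 (54.3%), and in the Lsd1 lists at 10 (58.5%) and 10 (61.7%). None of the 10 lacked a peak in every list (0 genes), as 33.6% of all genes did. A peak in all 4 libraries was present at 9 of 10 genes, against 53.1% of all protein-coding genes, and the exception was Cdkn2a, which had a peak in 3 of 4 libraries, as did 5.03% of genes. Gfi1 peaks were present in both tumors at 9 genes (53.9% of all genes) and Lsd1 peaks at 10 (57.7%). The peaks ranked high within their lists. The median percentile of the highest TSS peak was 96.7 and 86.2 for Gfi1 and 89.0 and 93.6 for Lsd1, and the medians over all protein-coding genes with such a peak were 82.5, 77.4, 79.0 and 81.0 in the same order. A peak of the upper 20% of scores was present in the Gfi1 lists at 9 genes in tumor 39 (36.2% of all genes) and 7 in tumor 41 (24.6%), and in the Lsd1 lists at 6 (28.1%) and 7 (32.2%). In all 4 libraries, 6 genes had such a peak (19.9% of all genes), namely Ccnd3, Ccne1, Ccne2, Cdk4, Cdkn1b and Cdkn2c.

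**Figure D1:**
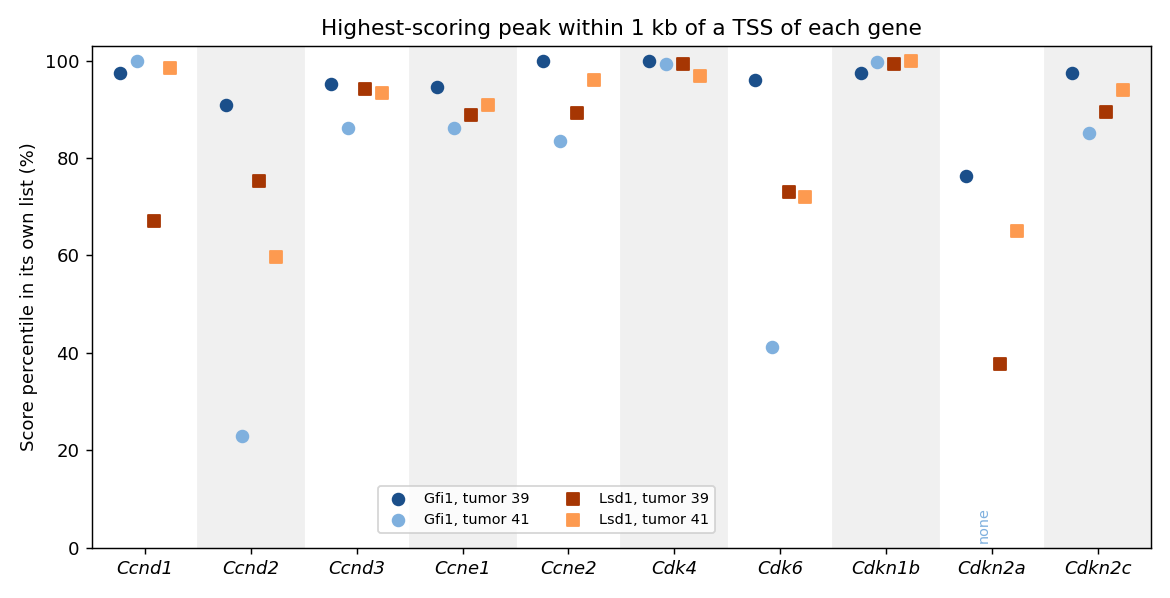
Score percentile within its own list (vertical axis, %) of the highest peak within 1 kb of a TSS of each gene (horizontal axis), with 1 point per library, circles for Gfi1 and squares for Lsd1, darker for tumor 39 and lighter for tumor 41. Cdk4 and Cdkn1b lie at 96.9 or above in all 4 libraries, whereas Ccnd2 falls to 22.8 and Cdk6 to 41.2 for Gfi1 in tumor 41, and Cdkn2a has no Gfi1 peak there.

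Ordered by the mean percentile over the 4 libraries, Cdkn1b stood at 99.1 ± 1.09 (SD, n = 4) and Cdk4 at 98.9 ± 1.35. The 4 libraries are both factors in the same tumors and not replicates of 1 quantity, so this SD mixes differences between factors and between tumors. Next came 5 genes within a narrow band, with Ccnd3 at 92.2 ± 4.11, Ccne2 at 92.1 ± 7.28, Cdkn2c at 91.5 ± 5.35, Ccnd1 at 90.8 ± 15.8 and Ccne1 at 90.1 ± 3.59. Cdk6 at 70.5 ± 22.5 and Ccnd2 at 62.2 ± 29.2 came last among the genes with 4 values. Neighbours in this order differed by less than the spread over their libraries, except that the step from Cdk4 to Ccnd3 exceeded the SD of both genes. The step from Ccne1 to Cdk6 exceeded the SD of Ccne1 and was smaller than that of Cdk6.

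Among the D-type cyclins, Ccnd1 and Ccnd3 lay under some of the widest peaks of the lists and Ccnd2 under a divided peak that differed between the tumors. Ccnd1 (chr7:144929931-144939925, minus strand), the D-type cyclin most directly induced by mitogens, had its TSS peak at percentile 97.5 and 99.9 for Gfi1 and 67.1 and 98.5 for Lsd1. The Lsd1 peak of tumor 39 was thus the low value, and the Lsd1 mean of 82.8 ± 22.2 (SD, n = 2) overlapped the Gfi1 mean of 98.7 ± 1.68. The same peaks were 8448, 7524, 12845 and 12319 bp wide in that order of libraries, so the Lsd1 peak of tumor 39 was the widest of the 4 while having the lowest percentile. A stretch of 7440 bp, chr7:144936589-144944028, lay inside the peaks of all 4 libraries and ran from upstream of the first TSS into the gene. The Lsd1 peak reached further into the transcribed region than the Gfi1 peak at the start, which covered 65.6% of its bases in tumor 39 and 61.1% in tumor 41. Further Gfi1 peaks lay in the rest of it, and all Gfi1 peaks together covered 73.2% and 86.2%.

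Ccnd2 (chr6:127125162-127152193, minus strand), a D-type cyclin of dividing neural progenitors, had percentiles of 90.9 and 22.8 for Gfi1 and 75.4 and 59.7 for Lsd1. Tumor 41 was below tumor 39 for both factors. The Gfi1 mean was 56.9 ± 48.2 (SD, n = 2) and the Lsd1 mean 67.5 ± 11.1. The shape of the binding differed as well. In tumor 39 Gfi1 gave 1 peak of 6932 bp over the starts of the coding transcripts, whereas in tumor 41 it gave 3 short peaks of 976, 1159 and 1046 bp, of which the highest-scoring one lay 557 bp upstream of the start of a noncoding transcript inside the gene. The 2 at the coding starts had percentiles of 17.3 and 17.2, so at those starts the fall from tumor 39 was larger than the gene's own value shows. Lsd1 gave peaks of 4999 and 919 bp in tumor 39 and of 1946 and 1944 bp in tumor 41. Only 2 stretches, of 1159 and 1046 bp, lay inside peaks of all 4 libraries.

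Ccnd3 (chr17:47505051-47599691, plus strand), a D-type cyclin known for its part in lymphocyte proliferation, has a 5′ cluster of starts and an internal cluster near its 3′ end, and both carried peaks of both factors in both tumors. The peak over the 5′ cluster was 13401 and 12001 bp wide for Gfi1 and 13513 and 13356 bp for Lsd1, with percentiles of 87.1, 83.8, 91.6 and 88.6. Of this peak 11919 bp was common to the 4 libraries. The internal cluster scored higher in each list, at 95.1, 86.2, 94.2 and 93.4, under narrower peaks of 7777, 4317, 3621 and 6768 bp. The broader of the 2 regions was therefore not the higher scoring one. Ccnd1 and Ccnd3 both had a TSS peak in the widest 1% of each of the 4 lists, a property of 0.533% of all protein-coding genes (117 genes), and no other gene of the 10 did.

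**Figure D2:**
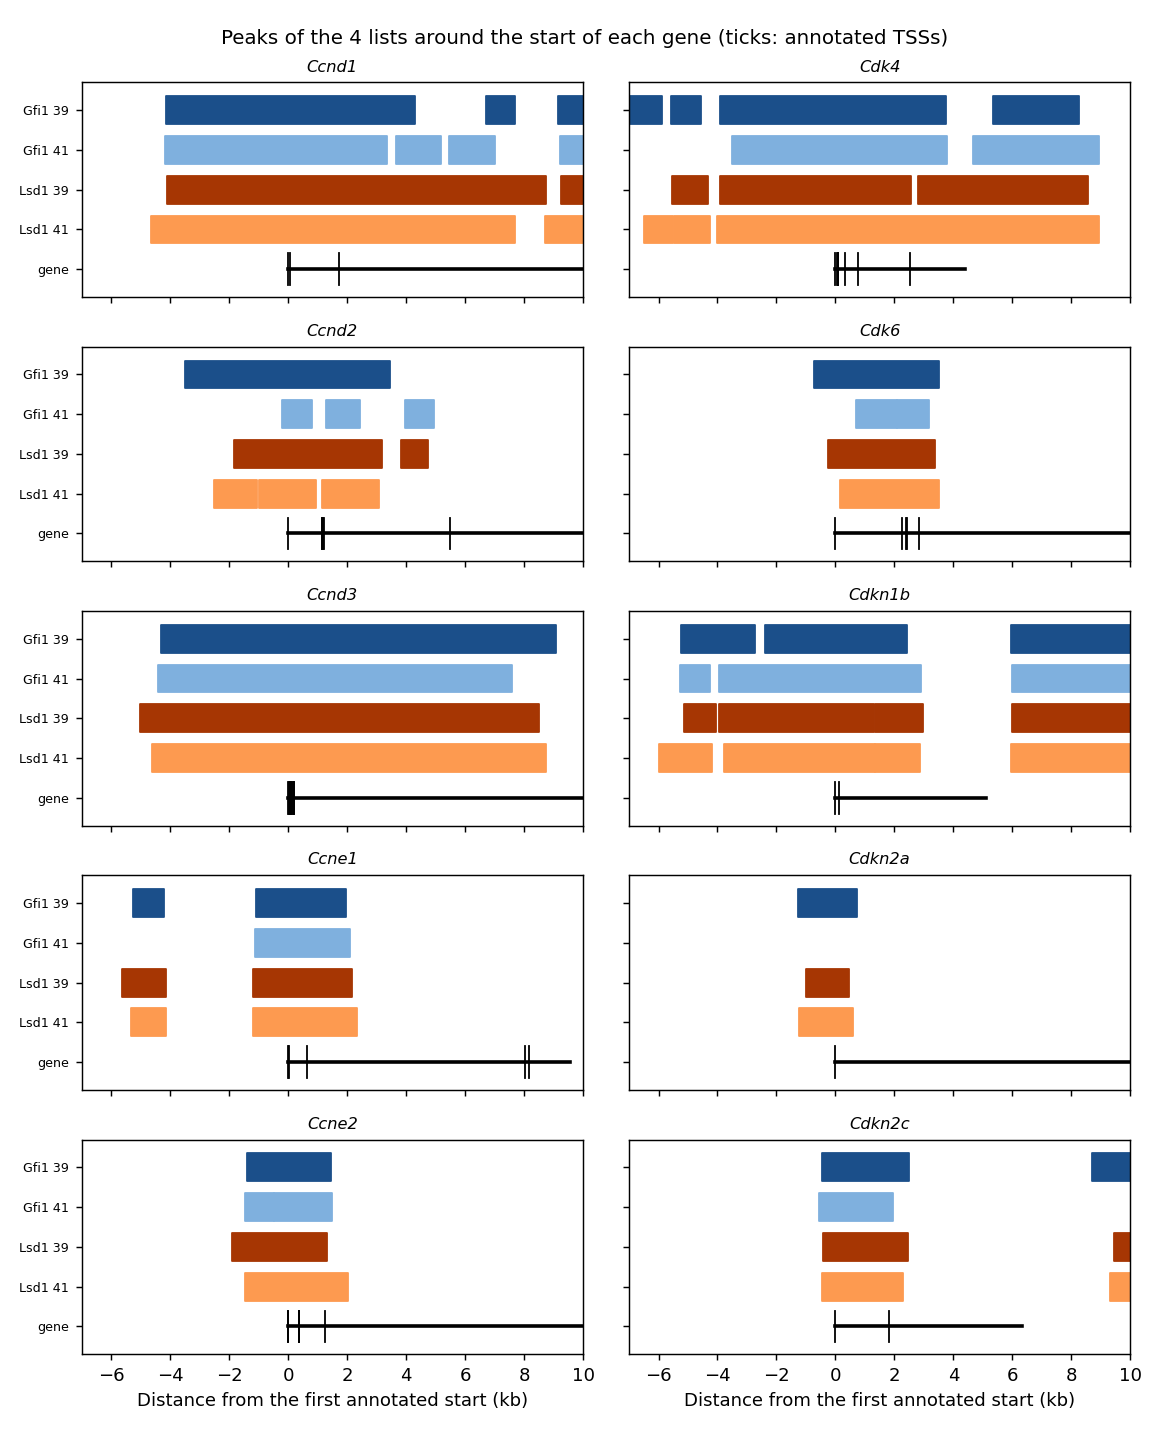
Peaks of the 4 lists (coloured bars, 1 row per library) from 7 kb upstream to 10 kb downstream of the first annotated start of each gene, with distance along the gene in kb on the horizontal axis, the gene as a black line and annotated starts as ticks. Ccnd3 lies under peaks of 12001 to 13513 bp in every library, Ccne1, Ccne2 and Cdkn2c under single blocks of similar extent, and Ccnd2 under a divided pattern in tumor 41. Adjacent bars at Cdk6 and Ccne2 in the Gfi1 list of tumor 41, and downstream of the Cdkn1b start in the Lsd1 lists, are separate peaks with a gap too small to draw.

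The E-type cyclins, which activate Cdk2 at the end of G1, had compact TSS peaks of high rank in every library. At Ccne1 (chr7:38097984-38107534, minus strand) Gfi1 ranked at percentiles 94.6 and 86.2, and Lsd1 at 88.8 and 91.0. The peak widths, 3046, 3225, 3376 and 3547 bp, varied little, and the whole 3046 bp of the shortest peak lay inside the peaks of the other libraries. At Ccne2 (chr4:11191351-11204779, plus strand) the percentiles were 99.8, 83.4, 89.3 and 96.1 in the same order of libraries. Gfi1 in tumor 41 was the low value and was also the library in which the region was split into peaks of 990 and 1970 bp, against single peaks of 2862 bp for Gfi1 in tumor 39 and of 3190 and 3491 bp for Lsd1. The mean percentile of Ccne2 was 91.6 ± 11.6 (SD, n = 2) for Gfi1 and 92.7 ± 4.79 for Lsd1, and that of Ccne1 was 90.4 ± 6.00 and 89.9 ± 1.55, so at neither gene did the factors differ by more than the spread between tumors.

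The kinases that partner D-type cyclins differed from each other. Cdk4 (chr10:127063534-127067920, plus strand) had percentiles of 99.9 and 99.4 for Gfi1 and 99.4 and 96.9 for Lsd1, all in the upper 20% of their lists by a wide margin. The Gfi1 peaks were 7670 and 7294 bp wide and covered most of the gene. Upstream, the highest Cdk4 peak of each of the 4 lists lay over a start of March9 or within 1 kb of it. The rank and width of these peaks therefore do not belong to Cdk4 alone. Lsd1 had 2 peaks of 6467 and 5764 bp in tumor 39 and 1 of 12947 bp in tumor 41. Those of 5764 and 12947 bp extended past the 3′ end of the gene and covered a start of another gene. They reached over the region of the starts of Tspan31 and A730063M14Rik, where Gfi1 had separate peaks. The Lsd1 percentile of 96.9 in tumor 41 thus belongs to a peak over starts of more than 1 gene. Cdk6 (chr5:3341485-3531008, plus strand), the other kinase of this pair, had percentiles of 96.0, 41.2, 73.1 and 72.0 in the same order. Its Lsd1 values were close to each other, with a mean of 72.5 ± 0.774 (SD, n = 2), whereas its Gfi1 values spread to 68.6 ± 38.7. Gfi1 in tumor 39 gave 1 peak of 4254 bp, and in tumor 41 it gave 2 peaks. The one of 1396 bp at percentile 41.2 ended 161 bp short of the nearest start, and the one of 1077 bp, at percentile 27.5, lay over the downstream coding starts. The percentile of Cdk4 was above that of Cdk6 in each of the 4 libraries.

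The promoter of Cdk4 is shown because it holds 4 copies of CACGTG, the canonical E-box word that Myc with Max binds, a count reached by 8 of 32851 promoter sequences of the same 300 bp length (0.0244%). At least 1 copy was present in 7.15% of those promoters. The sequence is the RefSeq promoter of GRCm38.p6 (mm10) upstream of the annotated start, chr10:127063285-127063533 on the plus strand, with the CACGTG words in capitals. All of it lay inside the TSS peaks of the 4 libraries.
Cdk4 promoter: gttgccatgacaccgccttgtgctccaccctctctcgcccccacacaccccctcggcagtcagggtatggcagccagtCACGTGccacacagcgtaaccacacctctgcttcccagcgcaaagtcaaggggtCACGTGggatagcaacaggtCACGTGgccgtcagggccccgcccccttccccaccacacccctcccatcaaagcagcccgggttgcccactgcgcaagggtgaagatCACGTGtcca
The word was searched on both strands, where it reads the same, and was chosen for display after the promoters had been seen. The promoters of Cdk6 and of the downstream start of Cdkn2c had 1 copy each, and no other promoter of the 7 genes found in the promoter table (10 promoters) had one. Promoters of Ccnd1, Ccnd2 and Ccne2 were not matched. These matches describe letters in the window and say nothing of what was bound.

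Of the inhibitors, Cdkn1b ranked at 97.5 or above in all 4 lists, Cdkn2c had high-ranking compact peaks, and Cdkn2a had lower-ranking peaks at 1 of its 2 starts. Cdkn1b (chr6:134920401-134925513, plus strand), which encodes p27Kip1, an inhibitor of cyclin E with Cdk2, had percentiles of 97.5 and 99.6 for Gfi1 and 99.4 and 99.97 for Lsd1. The peaks were 4794, 6829, 5278 and 5112 bp wide and shared 3696 bp. The first of these percentiles is that of the 805 tied peaks. Cdkn2c (chr4:109660876-109667189, minus strand), which encodes p18Ink4c, an inhibitor of Cdk4 and Cdk6, had percentiles of 97.5, 85.2, 89.4 and 93.9 and peak widths of 2949, 2508, 2872 and 2742 bp. Its shared stretch of 2385 bp spanned both annotated starts. The means of Cdkn2c were 91.4 ± 8.71 (SD, n = 2) for Gfi1 and 91.6 ± 3.17 for Lsd1.

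Cdkn2a (chr4:89274471-89294653, minus strand) encodes unrelated proteins from separate first exons, p19Arf, which protects p53 from Mdm2, and p16Ink4a, an inhibitor of Cdk4 and Cdk6. The start of the p19Arf transcript (chromosome 4, position 89294653) lay inside a peak at percentile 76.2 for Gfi1 in tumor 39 and at 37.7 and 64.9 for Lsd1 in both tumors, and inside no Gfi1 peak of tumor 41. The 3 peaks were 1995, 1447 and 1834 bp wide. The start of the p16Ink4a transcript (position 89282192) had no peak within 1 kb in any list, and the nearest peak was 11722 and 27987 bp away for Gfi1 and 12003 and 11855 bp away for Lsd1. Cdkn2a was the gene of the 10 with no peak in the upper 20% of any list. Its neighbour Cdkn2b, which encodes p15Ink4b, had a TSS peak in each library at 66.4, 36.6, 28.0 and 54.1, so that in tumor 41 Gfi1 ranked at 36.6 there and was without a peak at Cdkn2a.

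The starts of Cdkn2a also differed in CpG content, and both sequences are shown because the peaks lay at 1 of them. Within 500 bp of the start, the p19Arf promoter had 108 CpG dinucleotides at an observed-to-expected ratio of 0.981, and the p16Ink4a promoter had 37 at 0.537. The sequences are the RefSeq promoter stretches of GRCm38.p6 (mm10) upstream of each annotated start on the minus strand, chr4:89294654-89294869 for p19Arf and chr4:89282193-89282442 for p16Ink4a, with each CG in capitals (35 of them in 216 bp and 7 in 250 bp).
p19Arf promoter: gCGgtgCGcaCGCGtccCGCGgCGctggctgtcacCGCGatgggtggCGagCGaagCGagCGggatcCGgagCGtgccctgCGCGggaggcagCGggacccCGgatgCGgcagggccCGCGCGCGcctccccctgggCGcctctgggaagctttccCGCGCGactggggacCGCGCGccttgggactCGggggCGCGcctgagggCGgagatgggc
p16Ink4a promoter: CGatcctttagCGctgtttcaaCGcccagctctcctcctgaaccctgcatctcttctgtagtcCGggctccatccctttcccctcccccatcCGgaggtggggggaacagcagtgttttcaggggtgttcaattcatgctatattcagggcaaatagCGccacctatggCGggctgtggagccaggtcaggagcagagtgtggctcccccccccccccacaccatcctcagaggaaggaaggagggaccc
The full 300 bp p19Arf promoter was also the one among the 10 promoters with a match to an E2F word (TTTCCCGC, TTTGGCGC or TTTCGCGC on either strand), which 1.84% of all promoters hold.

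**Figure D3:**
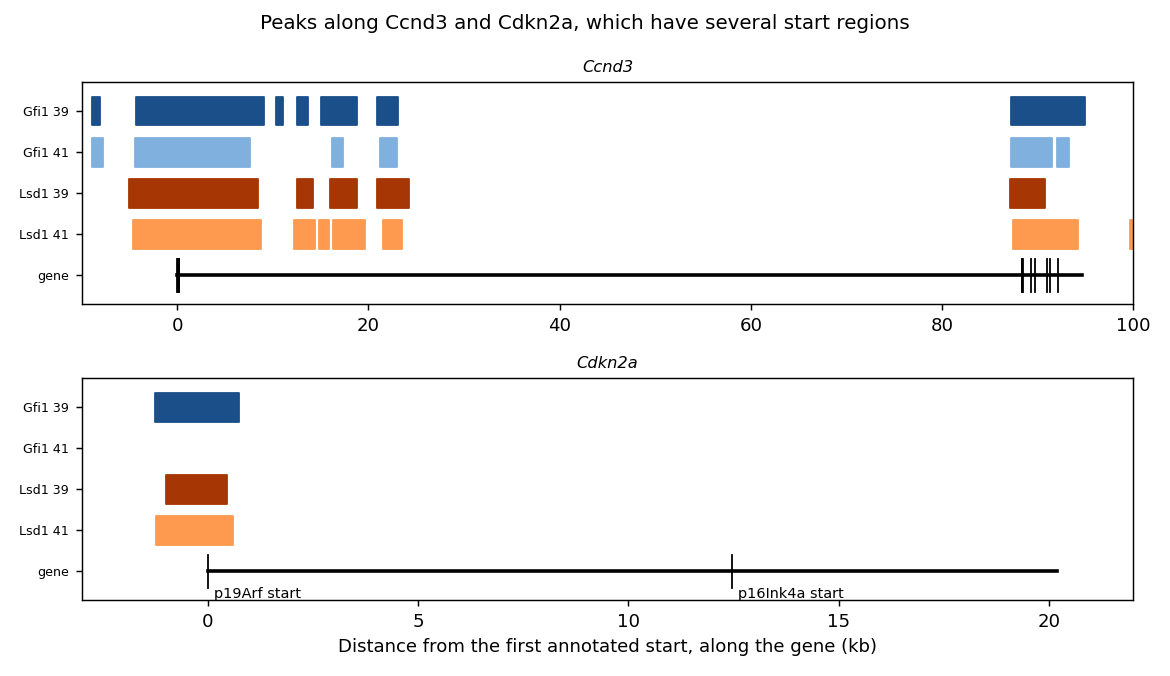
Peaks of the 4 lists (coloured bars, 1 row per library) along Ccnd3 and Cdkn2a, with distance from the first annotated start along the gene in kb and annotated starts as ticks on the black gene line. Both start regions of Ccnd3 carry a peak in every library, whereas the p16Ink4a start of Cdkn2a has none and the p19Arf start has 3 of 4.

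A stricter set was built after the high-confidence rule of the study's methods, which selects on enrichment. The lists give only the undefined score, so the set here took peaks of the upper 20% of scores in tumor 39 with at least 50% of their length inside such peaks of tumor 41, which left 4387 Gfi1 and 5181 Lsd1 peaks and is not the study's own set. In it, Gfi1 was present at the starts of 7 genes (22.9% of all protein-coding genes) and Lsd1 at 6 (25.9%). The Gfi1 genes were Ccnd1, Ccnd3, Ccne1, Ccne2, Cdk4, Cdkn1b and Cdkn2c. The Lsd1 genes were the same without Ccnd1, whose Lsd1 peak in tumor 39 ranked at 67.1, and these 6 were the genes with high-confidence peaks of both factors (19.5% of all genes). Ccnd2, Cdk6 and Cdkn2a had neither. With the upper 10% in place of the upper 20%, 3 genes were called for Gfi1 (10.9% of all genes), Ccnd1, Cdk4 and Cdkn1b, and 3 for Lsd1 (12.8%), Ccnd3, Cdk4 and Cdkn1b.

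Gfi1 and Lsd1 TSS peaks of these genes overlapped by at least 1 bp in nearly all cases. In tumor 39, 11 of 11 Gfi1 peaks overlapped an Lsd1 peak (81.8% of the TSS peaks of all protein-coding genes), and in tumor 41 it was 14 of 15, or 93.3% (97.7% of all). In the other direction, 12 of 13 Lsd1 peaks of tumor 39 overlapped a Gfi1 peak, or 92.3% (95.1% of all), as did 11 of 12 of tumor 41, or 91.7% (78.5% of all). Against these backgrounds the shares were higher in 2 of the 4 readings and lower in the others. The 3 peaks without a partner were the Gfi1 peak at chr6:127147245-127148220 in Ccnd2 in tumor 41, the Lsd1 peak at chr6:127147446-127148364 in Ccnd2 in tumor 39, and the Lsd1 peak at the p19Arf start in tumor 41. The pair at Ccnd2 lay over each other, being a Gfi1 site in tumor 41 and an Lsd1 site in tumor 39. With each peak trimmed to its central 200 bp, the share of Gfi1 peaks with a partner was 23.6% (48.7% for all protein-coding genes) and that of Lsd1 peaks was 27.2% (50.4%), as means over the tumors. In tumor 39 these were 4 of 10 Gfi1 and 4 of 9 Lsd1 peaks, and in tumor 41 they were 1 of 14 and 1 of 10. The highest TSS peaks of the 10 genes were wider than those of all genes. Their median widths were 4524 and 3225 bp for Gfi1 (2085.5 and 2185 bp for all genes). For Lsd1 they were 3609 and 3519 bp (2516 and 2380 bp). Centres of wide or split peaks can lie apart although the peaks overlap, and the part of width in the trimmed shares was not tested. The share of the bases of Gfi1 TSS peaks that lay inside Lsd1 TSS peaks ranged from 69.3% at Ccnd2 in tumor 41 to 100% at Ccne1 in both tumors and at Ccnd1, Cdk4 and Cdk6 in tumor 41.

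The percentiles of the factors were compared within each tumor. Over all genes, Gfi1 was ahead of Lsd1 by a median of 5.34 percentage points in tumor 39 and behind it in tumor 41, with a median difference of -4.84. Among the 9 genes with 4 values, 6 had Gfi1 above Lsd1 in tumor 39 and below it in tumor 41, which was also true of 49.8% of 11653 genes. The exceptions were Ccnd1, Cdk4 and Cdkn1b. At Ccnd1 Gfi1 exceeded Lsd1 by 30.4 points in tumor 39 and by 1.38 in tumor 41. At Cdk4 it exceeded Lsd1 by 0.546 and 2.48 points, and at Cdkn1b the difference was -1.86 and -0.352. At Cdkn2a the difference in tumor 39 was 38.5 points, and 3.52% of genes had a difference as large. Averaged over tumors, the difference was smaller than its SD at 7 of the 9 genes and slightly larger at Cdk4 (1.51 ± 1.36, SD, n = 2) and Cdkn1b (-1.10 ± 1.07). At Cdkn1b the difference came to -0.0133 when the percentile counted the peaks with a score at or below it, so it rests on how ties at a score of 3100 are ranked.

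Between tumors, Gfi1 percentiles were lower in tumor 41 at most genes, with a median difference of -7.37 points over 11833 genes and 5th and 95th percentiles of -42.8 and 6.73. Ccnd2 fell by 68.1 points, a fall that 0.414% of genes matched or exceeded, and Cdk6 fell by 54.8 points, which 2.14% matched or exceeded. Ccnd3, Ccne1, Ccne2 and Cdkn2c fell by 8.99, 8.48, 16.4 and 12.3 points, within the middle of the distribution. Ccnd1, Cdk4 and Cdkn1b moved by 2.38, -0.549 and 2.09 points. For Lsd1 the median difference over 12651 genes was 2.58 points, with 5th and 95th percentiles of -8.09 and 23.0. Ccnd1 was 31.4 points higher in tumor 41, a rise that 2.47% of genes matched or exceeded, Cdkn2a was 27.2 points higher (3.40% of genes), and Ccnd2 fell by 15.7 points (1.61% of genes as low). The other 7 genes lay between -2.48 points at Cdk4 and 6.78 at Ccne2. Each of these values compares 1 library with 1 library, and the difference between tumors cannot be told apart from the difference between their libraries. By the study's summary of its sequencing, the libraries also differed in mapped reads, with more for Gfi1 and fewer for Lsd1 in tumor 41, and the part of this in the percentiles was not tested.

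**Figure D4:**
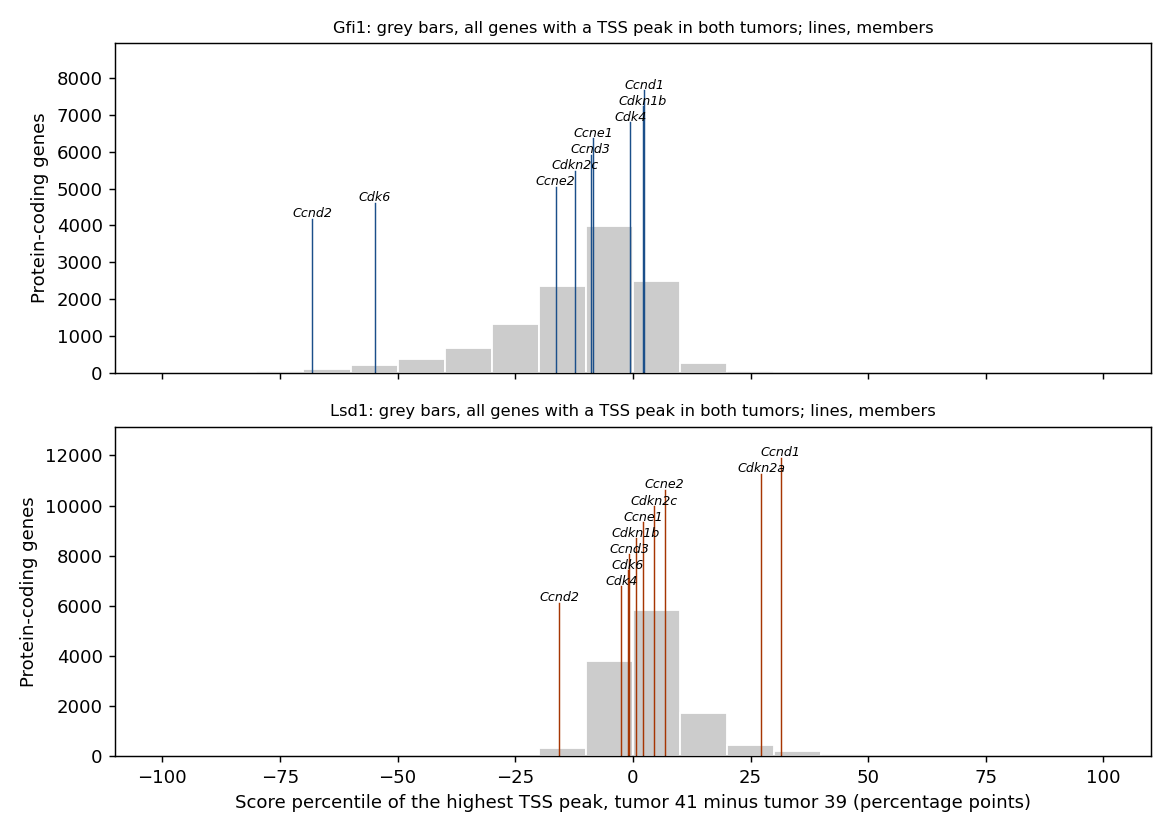
Difference in score percentile of the highest TSS peak, tumor 41 minus tumor 39 in percentage points (horizontal axis), as a histogram over all protein-coding genes with a TSS peak in both tumors (grey bars, number of genes on the vertical axis) with a named vertical line for each of the G1 genes, Gfi1 above and Lsd1 below; the heights of the lines have no meaning. Ccnd2 and Cdk6 lie in the left tail for Gfi1 at -68.1 and -54.8, and Ccnd1 and Cdkn2a in the right tail for Lsd1 at 31.4 and 27.2.

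Away from the starts, peaks in gene bodies were counted next. A peak in the gene and more than 1 kb from all of its own starts was present in both tumors at 2 genes for Gfi1 (14.7% of all protein-coding genes), Ccnd1 and Ccnd3, and at 3 for Lsd1 (17.1%), the same genes and Cdkn1b. At Ccnd1 a peak over the 3′ end ranked at 58.7 and 45.2 in the Gfi1 lists and at 46.4 and 69.5 in the Lsd1 lists. In an intron of Ccnd3, a peak lay 20677 to 21033 bp from the nearest start in the Gfi1 lists. It had percentiles of 69.6 in tumor 39 and 56.5 in tumor 41, and the Lsd1 lists had it at 59.3 and 55.2. Another intronic site of Ccnd3, 14849 to 16102 bp from the nearest start, had overlapping peaks in all 4 lists. It ranked at 69.0 and 16.2 for Gfi1 and at 68.7 and 60.5 for Lsd1. At Cdkn1b the Lsd1 gene-body peaks, at 47.9 and 63.0, began right beside the TSS peak, and the Gfi1 peaks at the start covered 66.2% and 100% of those bases. Cdk6 had an intronic peak 37054 bp from its nearest start for Gfi1 at percentile 28.1 and one at 35.7 for Lsd1, in tumor 39 and not in tumor 41. Ccnd2, Ccne1, Ccne2, Cdk4, Cdkn2a and Cdkn2c had no gene-body peak in any list.

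CpG-rich starts, defined by an observed-to-expected CpG ratio of at least 0.6 and a GC content of at least 50% within 500 bp, were present at 9 of the 10 genes and at 50.1% of all protein-coding genes. Of all genes with a CpG-rich start, 85.3% had a TSS peak in all 4 libraries and 36.0% had one of the upper 20% in all 4, whereas the other genes had shares of 20.8% and 3.82%. The high counts among the G1 genes thus stand beside a start sequence that most bound genes share, and its part in them was not tested. Ccnd2 was the gene without a CpG-rich start, with ratios of 0.520 to 0.536 at its coding starts. At Ccnd3 the 5′ starts had ratios of 0.458 to 0.486 and lay under the broad peak, and the internal start at position 47593470 of chromosome 17 had 0.842 and lay under the higher-scoring one. The core AATC of the Gfi1 recognition sequence was present on either strand in 73.1% of all promoters, and among the 10 promoters it had 5 matches at the downstream start of Cdkn2c, 2 at the p16Ink4a start, 1 each at Cdkn1b, Ccne1 and the internal start of Ccnd3, and 0 at the other 5. At least 2 matches were present in 44.5% of all promoters. Only the 300 bp promoters were searched, and peaks extend beyond them, so these counts say nothing of what was bound.

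The other genes of the G1 to S pathway had a TSS peak about as often. This list of 25 includes Cdk2, the Cdk-activating kinase subunits, the retinoblastoma and E2F families and further inhibitors. A TSS peak was present for Gfi1 at 25 of 25 in tumor 39 (65.0% of all protein-coding genes) and 24 in tumor 41 (54.3%). For Lsd1 it was present at 25 in both tumors (58.5% and 61.7%). The gene without a Gfi1 peak in tumor 41 was Cdkn1c, which encodes the inhibitor p57Kip2 and had percentiles of 85.4 for Gfi1 in tumor 39 and 59.2 and 78.6 for Lsd1. Their median percentiles were 88.7, 80.8, 85.8 and 86.9 in the 4 lists, each below that of the 10 genes and above that of all genes. In all 4 libraries a peak of the upper 20% was present at 11 of the 25 (19.9% of all genes, 36.0% of those with a CpG-rich start). High-confidence peaks were present at 10 for Gfi1 (22.9% of all genes) and 14 for Lsd1 (25.9%). Among the 10 genes the counts were 6, 7 and 6 in that order. A CpG-rich start was present at 24 of the 25 and at 50.1% of all genes.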

How the data were processed

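The authors aligned reads to mm10 with BWA 0.6.2, merged files and removed duplicates with Picard, and called peaks per library with MACS at default settings against input chromatin. Which input each list was called against is not clear from the sources used here, and the input listed in the series was pooled from MGB tumors. The deposited lists give each peak's position and a score, whose scale the sources used here do not define, and carry no read counts, so the reads behind each peak and its precision are unknown.

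Peaks were joined to GENCODE M21 (mm10), where starts of all transcripts of 21938 protein-coding genes on chromosomes 1 to 19, X and Y were used, with Python 3.11.15, numpy 2.4.6 and pysam 0.24.0. A gene was called bound where a peak lay within 1000 bp of a start, and its value was the percentile of the highest-scoring such peak. The counting code was tested on simulated peaks. No test was run. Libraries with the same number came from the same tumor, as their names in the labels state, so overlap was read within a tumor.

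The 10 genes were named, and the other 25 pathway genes counted, except that Cdkn2b and genes with peaks of neither factor or of 1 alone (0 genes) were to be named. Genes and lists were chosen with earlier results of these data known. Cdkn1c, the CACGTG word, the widest 1%, the CpG-rich split and the flanking peaks were chosen after values were seen. Promoters were 300 bp RefSeq sequences (250 before to 50 after the start). The input library was not analysed here. Alternatives covered window, transcripts, score cut-offs, peak width, overlap rule, pairing and left-out libraries.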

Additional observations from a re-analysis of the deposited data

Results flagged for a closer look

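At 6 genes the order of the factors turned between the tumors, with Gfi1 ranked above Lsd1 in tumor 39 and below it in tumor 41. The Gfi1 minus Lsd1 score percentile went from 15.6 to -36.8 points at Ccnd2, a change of -52.4, and from 22.9 to -30.8 at Cdk6, a change of -53.7. It went from 10.5 to -12.7 at Ccne2, a change of -23.2, and from 8.16 to -8.64 at Cdkn2c, a change of -16.8. The smaller changes were -10.7 at Ccne1, from 5.89 to -4.79, and -8.16 at Ccnd3, from 0.952 to -7.21. The difference between tumors was not tested, as each value rests on 1 library per factor and tumor, and the same turn was present at 49.8% of all genes with a TSS peak in the 4 libraries.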

How the results depend on the processing

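Of 140 alternative values, 125 stayed within the limits set for a result, and 15 moved. The limits were within 1.5 times a count, or within 1 SD over the tumors for other values. Of the alternatives, 0 turned the sign of a difference larger than its SD. With n = 2, the value of 1 tumor always lies within 1 SD of the mean. Leaving out a tumor therefore could not move such a value, nor turn the sign of a difference larger than its SD. The limit for counts was wide as well. With the upper 20%, the genes with a TSS peak in all 4 libraries fell from 9 to 6 (53.1% and 19.9% of all genes) and stayed within it. Among the Gfi1 minus Lsd1 differences smaller than their SD, the sign turned in 10 alternatives at 6 genes. With tumor 39 alone these were Ccnd2 (15.6 in place of -10.6), Ccnd3 (0.952 in place of -3.13), Ccne2 (10.5 in place of -1.06), Cdk6 (22.9 in place of -3.95) and Cdkn2c (8.16 in place of -0.242), and with tumor 41 alone Ccne1 (-4.79 in place of 0.547). Ranked among peaks at starts, Ccnd2 became 0.406, Cdk6 5.28 and Cdkn2c 0.566, and Cdkn2c became 0.850 with ties counted. With peaks of the upper 20% alone, Lsd1 was present in both tumors at 6 genes, 85.0% of Gfi1 peaks overlapped an Lsd1 peak and 100% of Lsd1 peaks overlapped a Gfi1 peak. With the upper 10%, high-confidence peaks were present at 3 genes for Gfi1 (10.9% of all genes) and 3 for Lsd1 (12.8%). With peaks trimmed to 200 bp the shares that overlapped were 23.6% for Gfi1 (48.7% for all genes) and 27.2% for Lsd1 (50.4%). The share of Lsd1 peaks that overlapped Gfi1, 92.0% ± 0.453 (SD, n = 2), became 95.8% at 500 bp, 89.3% at 2000 bp, 95.8% with protein-coding transcripts and 87.5% with the upper 80% of scores. Among peaks at starts alone, the median Lsd1 percentile was 84.2 in place of 91.3. Apart from the 200 bp setting, overlap shares over all genes were not computed for these changed settings. Nor was the share of all genes for the Lsd1 count of 6. Those values are therefore not shown to be particular to the G1 genes.

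Overlap was paired within a tumor. Without that replicate block, using the partner of the other tumor, the share was 96.2% for Lsd1 peaks and 96.7% for Gfi1 peaks. The share over all genes was not computed for that pairing. With 1 library left out at a time, Gfi1 was present at 9 to 10 genes, Lsd1 at 10 to 10, and all libraries together at 9 to 10. For the high-confidence rule, leaving out 1 list of a factor leaves only the upper 20% of the other list, with no overlap between tumors. Such peaks were present at 7 to 9 genes for Gfi1 (24.6% to 36.2% of all protein-coding genes). For Lsd1 they were present at 6 to 7 (28.1% to 32.2%). The overlap shares ranged from 93.3% to 100% and from 91.7% to 92.3%, gene-body counts from 2 to 3 and from 3 to 4, and median percentiles from 86.2 to 96.7 for Gfi1 and from 89.0 to 93.6 for Lsd1. Peak calls depend on read depth, which the lists do not give, and its part in these values was not tested.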

Other observations

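Peaks of high rank also lay beside 3 of the G1 genes, at the starts of neighbouring genes. Downstream of Cdkn1b, a peak over the starts of Lockd, a noncoding RNA gene, and Gm44238 began 834 to 880 bp past the end of Cdkn1b. For Gfi1 it was 6069 bp wide at percentile 97.5 in tumor 39 and 5988 bp at 99.1 in tumor 41, and for Lsd1 5993 bp at 99.1 and 5936 bp at 98.5, so that it was wider than the peak at the start of Cdkn1b in 3 of 4 libraries. Downstream of Cdk4, Gfi1 had a peak at the starts of Tspan31 and A730063M14Rik at percentile 84.4 in tumor 39 and 95.7 in tumor 41. Lsd1 peaks reached over the same region, at 95.9 in tumor 39 and 96.9 in tumor 41. They were counted among the TSS peaks of Cdk4. Upstream of Cdkn2c, the start of Faf1 had a peak at 99.9 and 98.2 for Gfi1 and at 91.0 and 96.3 for Lsd1 (tumors 39 and 41), each above the value at Cdkn2c in the same library. These regions were looked at after the values at the G1 genes had been seen.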
